A study of Mus musculus with 4 samples.

Results

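The genes described here encode structural proteins of the striated sarcomere other than myosin, troponin and tropomyosin. They were chosen by name, and all 9 of them, *Ttn*, *Actn2*, *Ldb3*, *Myoz2*, *Tcap*, *Csrp3*, *Mybpc3*, *Myom1* and *Nebl*, were found among the 24637 genes of the table. Messenger RNA had been sequenced from mouse embryonic stem cell (ESC) lines cultured towards cardiomyocytes, 2 libraries from WT lines (genotype Taf4+/+) and 2 from lines labelled *Taf4a*-/- (genotype Taf4-/-). The ESCs came from blastocysts of crosses between heterozygous animals whose null allele lacks a pair of internal exons, and 2 lines of each genotype were derived, so a genotype is represented by few clones. All lines were kept on inactivated fibroblast feeders with LIF, grown as embryoid bodies for 5 days in serum, and plated on gelatin for 9 further days, and no other agent is named. Between 21732746 and 27733034 reads were counted on genes in a library. *Taf4a* itself did not read lower in the libraries labelled *Taf4a*-/-, at 1722 and 1799 normalized counts against 889 and 678 in WT (log2 fold change 1.18 ± 0.16 SE, adjusted p = 0.00569 by limma). The counts cover the whole gene, so genotypes are given below as the labels state them. The question asked of these libraries was whether cells without Taf4, a subunit of the general transcription factor TFIID, switch on the genes of contractile cardiomyocytes.

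A sarcomere is the contractile unit of striated muscle. Thin filaments of actin are anchored at its borders, the Z-discs, by alpha-actinin, and thick filaments of myosin are held in register at its centre, the M-band, by myomesins. Titin is a giant protein that runs from Z-disc to M-band and acts as a spring and a scaffold, and in the beating heart these proteins carry force and sense stretch; mutations in many of them cause cardiomyopathy.

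Because all 7 of these genes that could be tested fell together, the DNA around annotated transcription start sites is shown. It is given for those of the 9 whose window holds a binding motif of the muscle factors MEF2 or SRF. RefSeq windows of 300 bases in the build GRCm38.p6, from 250 bases before to 50 after an annotated start, were matched by symbol for 8 of the 9 genes and gave 13 windows, with several starts for *Nebl*, *Csrp3* and *Ldb3*. *Tcap* had no matched window. Capitals mark every match to the 6 motifs searched, which were the MEF2 box, the CArG box bound by SRF, the M-CAT element (CATTCC), the E-box CAGCTG and the GATA motif AGATAA on both strands, and the TATA box TATAAA on the gene's strand, beginning between -45 and -15. The windows are *Ttn* (chr2:76982498-76982797, minus strand), *Myoz2* (chr3:123034938-123035237, minus strand), *Mybpc3* (chr2:91117894-91118193, plus strand), *Ldb3* (chr14:34588632-34588931, minus strand, the first of its pair of overlapping windows), *Myom1* (chr17:71019307-71019606, plus strand) and *Nebl* (chr2:17462807-17463106, minus strand, 1 of its 4 windows), each written from 5′ to 3′.
Ttn: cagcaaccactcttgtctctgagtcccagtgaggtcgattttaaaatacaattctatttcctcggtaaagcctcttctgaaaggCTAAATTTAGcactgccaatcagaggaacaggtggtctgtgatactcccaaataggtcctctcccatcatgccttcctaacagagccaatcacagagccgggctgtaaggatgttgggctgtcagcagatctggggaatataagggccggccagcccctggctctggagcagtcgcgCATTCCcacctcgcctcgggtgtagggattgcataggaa
Myoz2: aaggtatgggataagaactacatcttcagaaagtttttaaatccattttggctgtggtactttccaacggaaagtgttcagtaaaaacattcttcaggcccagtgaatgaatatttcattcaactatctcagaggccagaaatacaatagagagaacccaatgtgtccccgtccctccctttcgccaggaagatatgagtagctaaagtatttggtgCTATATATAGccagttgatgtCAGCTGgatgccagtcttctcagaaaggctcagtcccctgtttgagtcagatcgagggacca
Mybpc3: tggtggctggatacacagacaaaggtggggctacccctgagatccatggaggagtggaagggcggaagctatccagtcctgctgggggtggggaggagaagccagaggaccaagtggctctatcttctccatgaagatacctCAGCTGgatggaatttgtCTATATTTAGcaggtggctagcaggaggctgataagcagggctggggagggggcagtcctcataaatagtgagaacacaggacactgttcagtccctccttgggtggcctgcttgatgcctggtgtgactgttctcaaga
Ldb3: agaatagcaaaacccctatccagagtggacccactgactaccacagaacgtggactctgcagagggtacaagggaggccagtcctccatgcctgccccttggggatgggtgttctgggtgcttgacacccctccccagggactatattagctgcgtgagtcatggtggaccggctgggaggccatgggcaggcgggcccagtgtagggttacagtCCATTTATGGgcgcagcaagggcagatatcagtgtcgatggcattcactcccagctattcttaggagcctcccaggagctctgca
Myom1: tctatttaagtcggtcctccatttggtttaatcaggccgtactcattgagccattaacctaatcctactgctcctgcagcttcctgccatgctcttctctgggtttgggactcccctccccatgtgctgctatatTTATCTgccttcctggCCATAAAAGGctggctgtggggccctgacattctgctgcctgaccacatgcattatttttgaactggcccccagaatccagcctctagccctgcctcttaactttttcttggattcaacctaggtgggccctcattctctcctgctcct
Nebl: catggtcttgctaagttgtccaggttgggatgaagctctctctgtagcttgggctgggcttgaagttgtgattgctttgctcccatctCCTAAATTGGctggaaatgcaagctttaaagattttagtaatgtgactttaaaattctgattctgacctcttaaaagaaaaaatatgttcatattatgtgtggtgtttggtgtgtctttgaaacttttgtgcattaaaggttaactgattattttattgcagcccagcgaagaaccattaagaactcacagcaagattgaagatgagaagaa

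A MEF2 box was found in the *Ttn* window as CTAAATTTAG at -166 from the start, in that of *Myoz2* as CTATATATAG at -33 and in that of *Mybpc3* as CTATATTTAG at -90. These 3 of the 13 windows compare with 3.19% of the 32851 windows of all genes. The CArG box was matched in 4 of the 13 windows, against 1.63% of all windows. Its matches were CCATTTATGG, the same site in both overlapping *Ldb3* windows, CCATAAAAGG at -99 in *Myom1*, and CCTAAATTGG at -162 in 1 of the 4 *Nebl* windows. That *Nebl* window lies inside the gene, downstream of the other *Nebl* windows on the minus strand. The bases directly before its start, ttattgcag, read like the end of an intron. Whether transcription starts there was not tested, so the window may not be a promoter. The E-box was matched in 2 windows (16.3% of all), in *Myoz2* at -12 and *Mybpc3* at -108, the M-CAT element in 2 (14.7%) and the GATA motif in 3 (11.2%). The window of *Actn2* and both windows of *Csrp3* held no match to any of the 6 motifs. No window held TATAAA between -45 and -15, and 2.25% of all windows did. The motifs were chosen after the expression values were known, the windows of a gene are not independent of each other, and a match is a run of letters rather than a site shown to be bound.

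Every one of the 9 genes read lower in both libraries labelled *Taf4a*-/- than in both WT libraries. Such a complete separation in this direction was found for 36.6% of the 16926 genes tested, which include 7 of the 9. With 2 libraries against 2, an exact permutation test of a single gene cannot go below p = 0.333 (two-sided), and the tests below are those of limma, fitted across every gene that averaged 10 normalized counts or more, on the scale log2(normalized counts + 1), which understates the changes of genes with few reads. Of the 9 genes, 7 passed that filter and all 7 were called lower (adjusted p-value under 0.05), where 17.3% of all genes tested were called lower. None of them passed the filter through WT alone, since each also had a mean above 10 in the libraries labelled *Taf4a*-/-. Their log2 fold changes ran from -5.13 for *Csrp3* to -2.05 for *Mybpc3*, with a median of -3.00, and the median of all genes tested was -0.01. In these mixed cultures, fewer cardiomyocytes and less RNA per cardiomyocyte cannot be told apart.

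**Figure D1:**
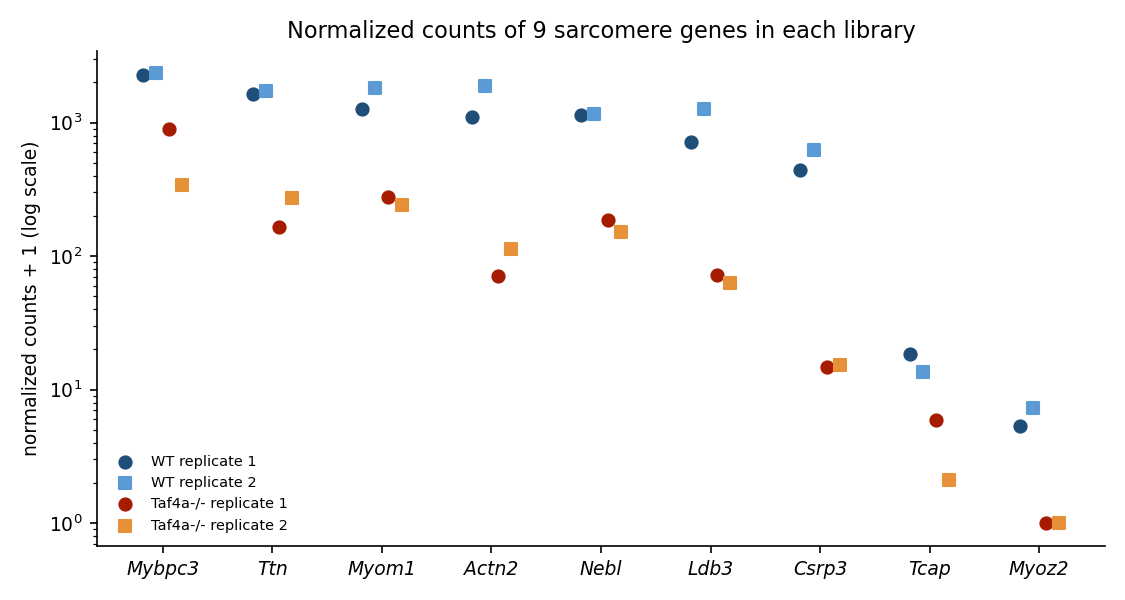
Normalized counts plus 1, on a log axis, of the 9 genes in each of the 4 libraries, ordered by their WT level. For each gene both libraries labelled Taf4a-/- lie under both WT libraries, with the widest gap for Csrp3 and counts near the floor for Tcap and Myoz2.

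Markers of the cell types that such cultures can hold were read in the same libraries. For each list below, 17.3% of all genes tested were called lower. The 6 cardiomyocyte markers *Tnnt2*, *Myh6*, *Myl7*, *Myl2*, *Nkx2-5* and *Actc1* were present in WT, with sums of 18738 and 20429 normalized counts. These 6 were all called lower, with sums of 1252 and 1485 in the libraries labelled *Taf4a*-/- and a median log2 fold change of -4.13. Of the 6 skeletal muscle markers, *Myod1*, *Myog* and *Ckm* had between 0 and 9.64 normalized counts in any library, *Myh3* had 17.5 and 0 in WT against 25.5 and 3.32, *Acta1* had 202 and 380.3 against 197 and 113, and *Tnnt3* had 197 and 143 against 114 and 109. For this list, 0 of the 3 tested markers were called by limma (0 at an unadjusted p under 0.05, and 0 by voom). *Acta2* and *Myh11* were the 2 of 5 smooth muscle markers called lower, with summed levels of the list of 29922 and 53617 in WT and 20615 and 19733 in the libraries labelled *Taf4a*-/-. By voom, 1 was, and both calls were lost without a variance trend, that of *Myh11* also without WT replicate 2 and that of *Acta2* without either of the libraries labelled *Taf4a*-/-. Of 5 fibroblast markers, 4 were lower, with a median of -3.68 and sums of 378532 and 527251 against 39207 and 46061, and all 5 pluripotency markers were higher (11.3% of all genes tested were called higher), with sums of 3305 and 1181 against 10689.8 and 11949. The calls of *Pou5f1* and *Sox2* were lost without a variance trend. The part of the listed cell types in the falls of the sarcomere genes was not tested.

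At the Z-disc, the deepest fall was that of *Csrp3*, which encodes muscle LIM protein, a small adaptor that links the Z-disc to stretch signalling. *Csrp3* (ENSMUSG00000030470, chr7:56085768-56103400 of NCBIM37, minus strand) had 441 (replicate 1) and 628 (replicate 2) normalized counts in WT, against 13.7 and 14.4 in the libraries labelled *Taf4a*-/-. The lines of a genotype lay close together next to the gap between genotypes. WT exceeded the other genotype 38.1-fold, with means of 534 ± 132 and 14.0 ± 0.476 (SD, n = 2 each), a log2 fold change of -5.13 (95% interval -5.85 to -4.42) and an adjusted p of 0.000705 from limma.

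*Actn2* (ENSMUSG00000052374, chr13:12361693-12433027, minus strand), the alpha-actinin of cardiac muscle that crosslinks actin filaments at the Z-disc, had 1093 and 1881 normalized counts in WT and 70.5 and 113 in the libraries labelled *Taf4a*-/-. Both lines numbered replicate 2 had the higher value of their genotype. On the log2 scale the fold change was -3.99 ± 0.33 (SE; limma, adjusted p = 0.0015), and 6.16% of the WT mean remained.

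*Ldb3* encodes Cypher (also called ZASP), a PDZ and LIM domain protein that binds alpha-actinin and stabilizes the Z-disc under load. Its values (ENSMUSG00000021798, chr14:35339885-35401867, minus strand) were 715 and 1265 normalized counts in WT and 71.5 and 61.9 in the libraries labelled *Taf4a*-/-. The WT lines differed more from each other than the other pair did, and no values overlapped. A log2 fold change of -3.82 ± 0.30 (SE; limma, adjusted p = 0.00132) was close to that of *Actn2*, with largely overlapping 95% intervals of -4.55 to -3.09 and -4.80 to -3.18.

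The genes of telethonin and calsarcin-1 had the fewest reads of the group. *Tcap* (ENSMUSG00000007877, chr11:98245125-98246267, plus strand), the cap that joins the ends of a pair of titin molecules in the Z-disc, had 20 and 12 reads in WT, against 5 and 1 for the libraries labelled *Taf4a*-/-, which came to 17.5, 12.5, 4.89 and 1.11 normalized counts. Its mean of 9.00 fell short of the filter, and it was not tested there. The ratio of its summed reads, adjusted for depth, was 4.88 (exact 95% interval 2.01 to 14.3, counting error only). *Myoz2* (ENSMUSG00000028116, chr3:122709124-122737908, minus strand), which tethers calcineurin to alpha-actinin, had 5 and 6 reads in WT, against 0 for both libraries labelled *Taf4a*-/-. Against a floor of 3 reads per library it was at least 1.77-fold lower. When the filter was left out, *Myoz2* passed the threshold (adjusted p = 0.0254 from limma) and *Tcap* did not (adjusted p = 0.0716). With 0 reads in both libraries labelled *Taf4a*-/-, the value of *Myoz2* there was set by the pseudocount. No conclusion is therefore drawn from its p-value.

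*Nebl* encodes nebulette, the cardiac member of the nebulin family that lies along the thin filament next to the Z-disc, and its WT lines were nearly identical. The gene (ENSMUSG00000053702, chr2:17265536-17653091, minus strand) had 1145 and 1166 normalized counts in WT and 187 and 152 in the libraries labelled *Taf4a*-/-. It fell by 2.77 on the log2 scale, with the smallest standard error of the 7 tested genes (0.17; limma, adjusted p = 0.000926). The annotation gives *Nebl* 12 transcripts whose merged exons (13995 nt) are much longer than the longest single transcript (8079 nt), and a gene-level count does not separate them.

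Titin RNA fell in the libraries labelled *Taf4a*-/-, and its fold change is itself the median of the 7 tested genes. *Ttn* (ENSMUSG00000051747) lies on chromosome 2 of NCBIM37 from 76542037 to 76820604, minus strand, and its longest annotated transcript has 347 exons and 106824 nt. It had 1649 and 1736 normalized counts in WT against 163 and 269.9 in the libraries labelled *Taf4a*-/-. WT lines agreed within 0.07 on the log2 scale, whereas the others differed by 0.72. The log2 fold change, -3.00 ± 0.25 (SE; limma, adjusted p = 0.00143), left 12.8% of the WT mean. An antisense transcript, *Gm13938*, shares 453 nt of exon with *Ttn* and is not a row of the table; the library kit does not mark the strand, so reads from it could not be set apart.

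*Mybpc3*, the cardiac myosin-binding protein C of the thick filament, had the largest standard error of the 7 tested genes. The gene (ENSMUSG00000002100, chr2:90958301-90976673, plus strand) had 2261 and 2343 normalized counts in WT, but 897 and 342 in the libraries labelled *Taf4a*-/-, of which replicate 1 was the higher. This gap between lines of one genotype, 1.39 on the log2 scale, was the widest of any tested gene of the group. Its call (log2 fold change -2.05 ± 0.41 SE; limma, adjusted p = 0.0173) was lost when either WT library was left out (adjusted p = 0.0826 without WT replicate 1 and 0.114 without WT replicate 2) and without a variance trend (0.0695). Its log2 fold change was -2.75 without the library labelled *Taf4a*-/- replicate 1 and -1.36 without replicate 2. The direction stayed the same in all of these, and 26.9% of the WT mean remained.

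At the M-band, *Myom1*, which encodes the myomesin that crosslinks thick filaments and titin, had 1263 and 1829.8 normalized counts in WT and 277 and 242 in the libraries labelled *Taf4a*-/- (ENSMUSG00000024049, chr17:71368861-71476196, plus strand). The lines of each genotype stayed well apart from those of the other. With a log2 fold change of -2.55 ± 0.21 (SE; limma, adjusted p = 0.00143), 16.8% of the WT mean remained.

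To describe how the 9 genes stood to each other, in each library the log2 value of a gene was set against the mean of the other 8, near-floor *Tcap* and *Myoz2* included, and the genotypes were compared on that difference. *Csrp3* lost most relative to the rest, with 0.22 and 0.45 in WT and -2.09 and -1.75 in the libraries labelled *Taf4a*-/-, a change of -2.26. *Actn2* and *Ldb3* also ended lower against the rest, with changes of -0.98 and -0.78. *Mybpc3*, *Myom1* and *Nebl* ended higher against the rest, with changes of 1.21, 0.65 and 0.40. For *Ttn* (0.14) and *Tcap* (1.08) the values overlapped between genotypes. With only the tested members as the reference, the changes of *Mybpc3*, *Myom1*, *Nebl* and *Ttn* were 1.49, 0.91, 0.65 and 0.38. Those of *Actn2*, *Ldb3* and *Csrp3* were then -0.77, -0.57 and -2.1. No such value is given for *Myoz2*, whose 0 reads in both libraries labelled *Taf4a*-/- let the pseudocount set it. The change of *Csrp3* stayed between -2.43 and -2.07 under every alternative tried. That of *Mybpc3* ran from 0.56, without the library labelled *Taf4a*-/- replicate 1, to 1.85, without replicate 2, and that of *Actn2* was -0.47 without the first and -1.48 without the second. Those of *Nebl* and *Ttn* changed sign with a pseudocount of 10 (-0.08 and -0.35), those of *Myom1* and *Mybpc3* were then 0.15 and 0.68, and that of *Ttn* also changed sign without the library labelled *Taf4a*-/- replicate 2 (-0.40). Without WT replicate 2, the changes of *Ldb3* and *Nebl* were -0.49 and 0.24, and that of *Ldb3* was -1.14 with a pseudocount of 10. Since all of these differences share their reference, they are given as values without a test.

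Between the WT lines, replicate 2 had the higher value for 8 of the 9 genes, with *Tcap* as the exception, and the median difference over the 7 tested genes was 0.51 on the log2 scale. For the libraries labelled *Taf4a*-/-, 3 of the 9 genes were higher in replicate 2, and the median difference was -0.19. Both medians were small beside the -3.00 between genotypes. The cardiomyocyte markers did not move in 1 direction between the WT lines, where *Myh6* went from 4763 in replicate 1 to 6706 in replicate 2, *Myl2* from 698 to 396 and *Nkx2-5* from 302 to 198 normalized counts. The summed markers given above were higher in WT replicate 2 for smooth muscle and fibroblasts and lower there for pluripotent cells, and their part in the differences between the lines was not tested.

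Levels can be compared between genes only per length. On normalized counts per kb of merged exons, WT cultures had most *Csrp3* (573 ± 142) and *Mybpc3* (553 ± 13.9), followed by *Actn2* (403 ± 151), *Myom1* (274 ± 70.9), *Ldb3* (165 ± 64.5) and *Nebl* (82.6 ± 1.05; SD, n = 2 each). Down to *Ldb3*, the ranges of mean ± SD of neighbours in this order overlapped, and those of *Ldb3* and *Nebl* did not. At the bottom were *Tcap* (15.8 ± 3.78), *Ttn* (14.5 ± 0.528) and *Myoz2* (1.56 ± 0.385), the ranges of *Tcap* and *Ttn* overlapping. *Ttn* thus stood at percentile 13.6 of the genes tested in WT by level per kb, and *Csrp3* at percentile 81.2. Dividing by length assumes that reads spread evenly along a transcript, which gene-level counts do not show. In poly-A libraries this may not hold for a transcript of 106824 nt, so the level of *Ttn* may be understated. In the libraries labelled *Taf4a*-/- the order per kb was led by *Mybpc3* (149 ± 94.2) and *Myom1* (46.0 ± 4.36; SD, n = 2 each), and *Csrp3* had 15.1 ± 0.511, at percentile 16.3. With the longest transcript as the length, *Nebl* rose to 143 per kb in WT and *Ttn* to 15.8, and the order of the first 6 genes was unchanged.

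**Figure D2:**
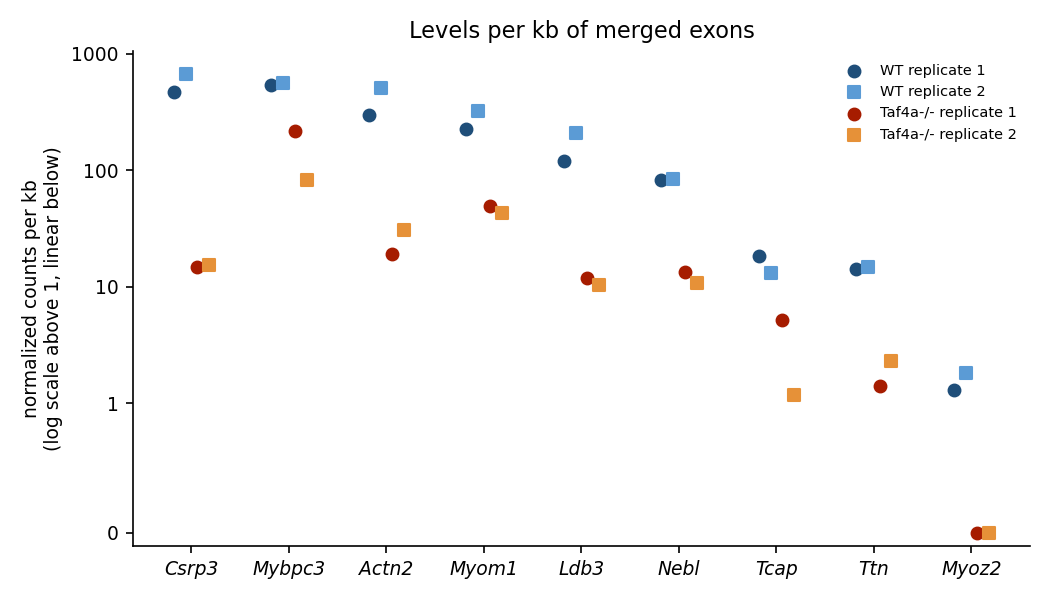
Normalized counts per kb of merged exons for the 9 genes in each library, on an axis that is logarithmic above 1 and linear below it. Csrp3 heads the WT order at 573 per kb and lies at 15.1 in the libraries labelled Taf4a-/-, whereas Mybpc3 keeps the highest level there.

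Relatives of these proteins that serve outside the striated sarcomere were not called in either direction. This held for all 11 genes of a list of such relatives, which had a median log2 fold change of -0.08 (0 lower and 0 higher by limma, and 0 also at an unadjusted p under 0.05 and by voom), and 3 of the 11, *Csrp1*, *Csrp2* and *Vcl*, were called lower without WT replicate 1. The non-muscle alpha-actinin *Actn1* had 8124 and 10139 normalized counts in WT and 11464 and 10113 in the libraries labelled *Taf4a*-/- (log2 fold change 0.25, 95% interval -0.13 to 0.62), and *Actn4* had a log2 fold change of 0.01 (-0.36 to 0.37). The log2 fold change of *Actn2* differed from that of *Actn1* by -4.24 (95% interval -5.13 to -3.34, with the errors of both fits taken as independent). The pairs compared here were picked after their values were seen. The ratio of *Actn1* to *Actn2* counts, which is not a ratio of levels per length and is compared only between libraries, was 7.43 and 5.39 in WT and 163 and 89.6 in the libraries labelled *Taf4a*-/-.

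A like contrast was seen for the cysteine-rich proteins, where *Csrp1* and *Csrp2*, the forms of smooth muscle and other cells, had log2 fold changes of -0.34 (-0.74 to 0.05) and -0.31 (-0.65 to 0.03). *Csrp3* lay below them by -4.79 (-5.61 to -3.97) and -4.82 (-5.61 to -4.03) on the log2 scale. *Lasp1*, a short relative of nebulette in the cell cortex, had -0.08 (-0.38 to 0.22), and *Nebl* differed from it by -2.69 (-3.21 to -2.18). Other relatives, *Flna*, *Vcl*, *Tln1*, *Zyx* and *Tmod3*, which link actin to adhesion sites or cap its ends, had log2 fold changes of 0.14, -0.33, 0.08, -0.17 and -0.13. Those of *Actn4*, *Lasp1* and *Tln1* changed sign in 1 or 2 of the alternatives tried.

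Sarcomeric relatives, picked after their values were seen, did not behave as 1 group. *Neb*, the nebulin of skeletal muscle, rose from 13.2 and 16.6 normalized counts in WT to 48.9 and 40.9 in the libraries labelled *Taf4a*-/- (log2 fold change 1.53, adjusted p = 0.0322 from limma), opposite to *Nebl*; it was not called with a replicate block or without any one of the libraries. *Actn3*, the alpha-actinin of fast skeletal fibres, was only just past the threshold (0.86, adjusted p = 0.0498 from limma). It was not called by voom, with a replicate block, without the filter, with a mean of at least 50 or without any library. *Myom2* fell like *Myom1*, from 21.9 and 36.4 to 2.94 and 7.74 normalized counts (log2 fold change -2.32, adjusted p = 0.0340), and the difference between the fold changes of the pair was -0.23 (-1.76 to 1.3), though *Myom2* was not called without a variance trend or without WT replicate 1, WT replicate 2 or the library labelled *Taf4a*-/- replicate 1. *Myom2* also passed the filter only through WT, with a mean of 5.34 in the libraries labelled *Taf4a*-/-, so no support is drawn from its call. *Mybpc2*, of fast skeletal muscle, had 1.03 (adjusted p = 0.122 from limma). The *Ldb3* relatives *Pdlim5* and *Pdlim7* had -0.87 (adjusted p = 0.0492) and 0.28 (adjusted p = 0.134), and the call of *Pdlim5* was lost in 10 of 14 alternatives.

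**Figure D3:**
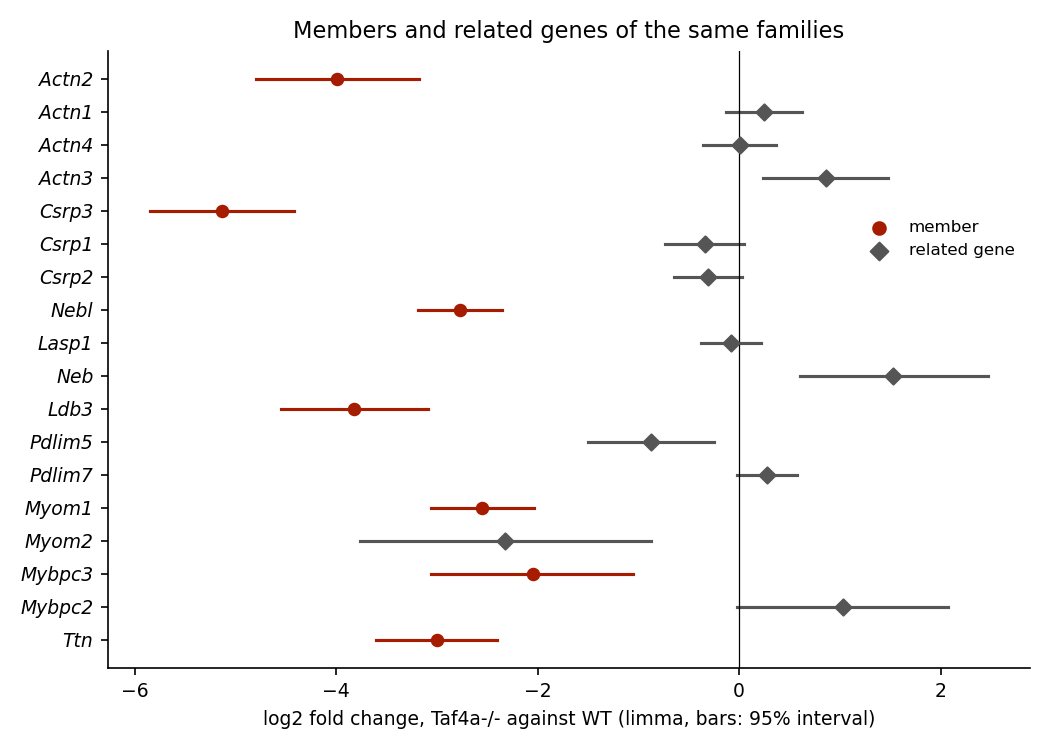
Log2 fold changes (libraries labelled Taf4a-/- against WT) with 95% intervals from limma for the 7 tested members and for related genes of their families. The intervals of Actn1, Actn4, Csrp1, Csrp2 and Lasp1 include 0, and those of the members lie at or below -1.05.

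Other genes of the Z-disc were more mixed than the 9. Of 28 listed, 27 were found and 22 tested, of which 11 were lower, 2 higher and 9 not called, with a median log2 fold change of -0.82, beside 17.3% lower and 11.3% higher among all genes tested. Without WT replicate 2, 4 were lower. The lowest were *Xirp1*, an actin-binding repeat protein (-4.00, adjusted p = 0.00125), *Sorbs2* (-2.40), the chaperone *Cryab* (-2.01) and nexilin, *Nexn* (-1.86), all with an adjusted p from limma under the threshold in every alternative. At the other end, besides *Neb* and *Actn3*, were *Mypn*, myopalladin, with 5.26 and 2.08 normalized counts in WT and 26.4 and 12.2 in the libraries labelled *Taf4a*-/- (2.11, adjusted p = 0.0562 from limma), and filamin C, *Flnc*, with 0.73 (adjusted p = 0.0506), which was called higher in 7 of 14 alternatives. *Flnc* and *Mypn* bind alpha-actinin or its partners in the same disc as *Ldb3* and *Myoz2*.

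Among 17 genes of the M-band, the thick filament and the thin filament ends, 14 were tested. Of these, 10 were lower, 0 higher (0 also at an unadjusted p under 0.05 and by voom) and 4 not called. Among all genes tested, 17.3% were called lower and 11.3% higher. The median of the list was -2.23. Without WT replicate 2, 6 were lower. *Mybphl*, a relative of *Mybpc3*, went from 54.4 and 75.9 normalized counts to 2.94 and 4.42 (log2 fold change -3.82, adjusted p = 0.00386 from limma), and the leiomodins *Lmod2* and *Lmod1*, which set or nucleate actin filaments, had -3.12 and -2.72. *Lmod1*, the leiomodin of smooth muscle, had 164 and 484 normalized counts in WT and was not called without a variance trend. Of the genes called lower, *Mybphl*, *Lmod2*, *Lmod3* and *Myom2* passed the filter only through WT. Their means in the libraries labelled *Taf4a*-/- were 3.68, 5.15, 4.79 and 5.34. A lower value was thus partly built into their selection, and no support is drawn from their calls. *Speg* had -0.68 (adjusted p = 0.0140), a call lost without a variance trend and without either of the libraries labelled *Taf4a*-/-, and *Myom3* and *Obsl1* had -0.78 and -0.15 (adjusted p = 0.326 and 0.409).

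Of 16 genes for the assembly and turnover of sarcomeres, 14 were found and tested, with 8 lower, 0 higher and 6 not called (at an unadjusted p under 0.05, 9 lower and 1 higher; by voom, 8 and 0) and a median of -1.23; without WT replicate 2, 4 were lower. Among all genes tested, 17.3% were called lower and 11.3% higher. The small heat shock protein gene *Hspb7* fell from 850.4 and 1655 to 36.2 and 48.7 normalized counts (-4.79, adjusted p = 0.00123 from limma). *Fsd2* had -4.38, but it passed the filter only through WT, with a mean of 2.02 in the libraries labelled *Taf4a*-/-. No support is drawn from its call. The myosin chaperone system, *Smyd1* and *Unc45b*, had -2.67 and -2.03. The muscle ubiquitin ligases that bind titin at the M-band, *Trim63* and *Trim55*, had -2.55 and -1.91, *Fbxo32* had -1.08, and the formin *Fhod3*, which builds cardiac actin filaments, had -1.38. Without WT replicate 2, *Smyd1*, *Unc45b*, *Trim63* and *Fbxo32* were not called, and *Unc45b* and *Trim63* were not called without WT replicate 1 either. *Unc45b* was also not called without a variance trend.

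**Figure D4:**
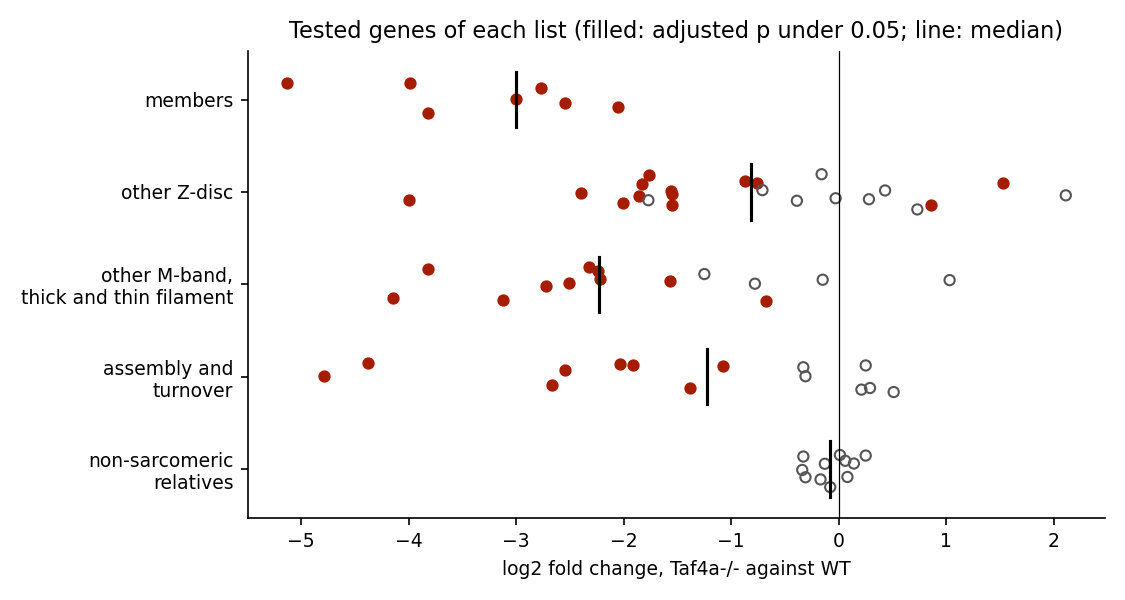
Log2 fold changes of the tested genes of each list, with filled points for an adjusted p under 0.05 (limma), open points for the rest and a line at the median. The 7 tested members lie between -5.13 and -2.05, and the 11 relatives outside the sarcomere scatter around -0.08.

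The genes whose pattern over the 4 libraries was most like the mean of the 9 were sought among 16919 others, by the Euclidean distance of log2 values centred on each gene's mean. Among the closest were *Tspan8* (distance 0.155), *Ccdc141* (0.187), *Lmod2* (0.191) and *Spdef* (0.193). *Ccdc141* had 1257 and 1660.4 normalized counts in WT and 157 and 155 in the libraries labelled *Taf4a*-/-, a log2 fold change of -3.21. It is also the neighbour of *Ttn* on chromosome 2, from 76847960 to 77008693 of NCBIM37 on the same strand, with 27355 nt and no protein-coding gene between them. *Lmod2* is a gene of the thin filament end described above. *Tspan8* and *Spdef*, a tetraspanin and an Ets factor of epithelia, lie on chromosomes 10 and 17.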

How the data were processed

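Messenger RNA (TruSeq, poly-A) of 4 libraries was analysed, 2 per genotype. According to the paper and the submitters' processing notes, the authors mapped reads to mm9/NCBI37 with TopHat 1.3.3, counted them on genes with HTSeq 0.5.3p1 and deposited counts divided by 1 size factor per library (normalized counts); the authors named DESeq in the notes and DESeq2 in the paper; CASAVA 1.8 is also named. The annotation release is not given in the sources used here. The deposited values use decimal commas, and 100% were whole multiples of the value of 1 read (tolerance 0.01), so reads were recovered. A variance-trend fit (limma 3.58.1, R 4.3.3; prior degrees of freedom 4.17) of log2(value + 1) took in 16926 genes averaging 10 or more, called at an adjusted p (Benjamini-Hochberg, all genes tested) under 0.05. The paper describes 2 lines per genotype but the labels do not tie a library to a line, so p-values measure the spread between libraries. Replicates are called lines in the report on that reading.

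Positions and lengths are from GENCODE M1 (NCBIM37), where all 24637 identifiers were found. Start site windows are RefSeq sequences of GRCm38.p6, another build, and were matched by symbol only. The 9 genes and all lists were chosen with earlier results of these data known. Genes named are the 9, *Taf4a*, the relatives outside the sarcomere, from each other list all called genes up to 8 or otherwise the 4 lowest and 4 highest fold changes, any called against the trend, the cell type markers and the 5 nearest patterns; 3 genes that this rule names are not reported here. The listed genes *Nrap*, *Klhl40* and *Klhl41* were not found under these symbols. Ratios to the other members were fitted with limma too, but share their denominator, so no p-value is given for them. The fit was repeated with another pseudocount, filter, scaling, threshold or variance model, with voom on recovered reads, with a replicate block and without each library. Figures were drawn with matplotlib 3.10.9 in Python 3.11.15.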

Additional observations from a re-analysis of the deposited data

How the results depend on the processing

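*Ttn*, *Actn2*, *Ldb3*, *Csrp3*, *Myom1* and *Nebl* kept their direction and their call in all 16 alternatives each, with adjusted p-values up to 0.0381, and *Mybpc3* kept its direction in 16 and its call in 12; it was also not called at an adjusted p under 0.01. Members called lower were 7, and 6 to 7 with one library left out, with a median log2 fold change from -3.36 to -2.92. With the replicate number as a block, which no source describes as pairing lines (correlation of same-numbered deviations 0.01), 7 members, 2657 genes lower and 1536 higher were called. No variance trend gave 1741 lower and 856 higher, with 6 other Z-disc genes lower. An adjusted p under 0.01 gave 1119 lower and 331 higher, with 5 other Z-disc genes and 4 of the M-band and filament list lower; under 0.1, 2903 genes were higher. A mean of at least 50 left 5 of the M-band and filament list lower. Quantile normalization called 2448 genes lower and 2676 higher, against 2928 and 1906, and moved the median of all genes to 0.11. With one library left out, where the lone library is assumed to vary like the others, genes lower ran from 1222 (without WT replicate 2) to 3038, genes higher from 624 (without *Taf4a*-/- replicate 2) to 2476, other Z-disc genes lower from 4 to 12, the M-band and filament list from 6 to 9, assembly and turnover genes from 4 to 8, relatives outside the sarcomere from 0 to 3, and the *Taf4a* log2 fold change from 0.98 to 1.37. The cause was not tested. The 2 planned count tests, by quasi-likelihood and by negative binomial models of the reads, were not run; voom was. Depth limits *Tcap* and *Myoz2*, with 38 and 11 reads in all.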

Other observations

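Between the 2 lines labelled *Taf4a*-/-, genes of the sarcomere did not shift together. *Mybpc3* was higher in replicate 1 (897 against 342 normalized counts), and so was *Ankrd1*, a stretch-responsive partner of titin (417 against 200.2). The opposite was seen for *Ttn* (163 against 269.9), *Actn2* (70.5 against 113), *Smyd1* (83.2 against 177), *Unc45b* (85.2 against 196) and *Trim63* (20.6 against 49.8). *Csrp3*, *Ldb3*, *Nebl* and *Myom1* differed by at most 0.30 on the log2 scale between these lines. *Ankrd1*, *Smyd1*, *Unc45b* and *Trim63* were picked here after their values were seen. The labels do not tie a library to a line, and with 1 library per replicate no test of a difference between replicates can be made.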
